A study of Mus musculus with 6 samples.

Results

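Tcf7, Gata3, Lef1, Ets1 and Myb encode transcription factors that act when blood progenitors are specified to the T lineage, and they are 5 of the 28048 genes listed in the count matrices of this series. They were taken by symbol, and each symbol matched 1 gene. RNA of single cells was counted by sci-RNA-seq3, a combinatorial indexing method in which fixed cells receive barcodes in successive rounds and each captured RNA carries a unique molecular identifier (UMI). The labels give the molecule as nuclear RNA. The question behind the experiment was what happens to progenitors when Bcl11b, a transcription factor of T-cell commitment, is switched on late.

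Both genotypes were C57BL/6 mice, male and female combined, homozygous for a YFP reporter at Bcl11b (Bcl11b YFP/YFP, called WT), and in ΔTE mice both copies also lacked the timing enhancer, a distal regulatory element of Bcl11b. CD117-enriched bone marrow of 6 to 8 pooled mice, 2 to 4 months old, was cultured on OP9-DL1 cells, a mouse stromal line that presents the Notch ligand DL1, and CD44+ progenitors were sorted from it by flow cytometry. DN1 cells were CD25-. DN2a and DN2b cells were both CD25+, the former without and the latter with the Bcl11b reporter. The sorted cells were put back on OP9-DL1 for 4 days, in cytokines given for growth of ILCs and NK cells according to the methods of the study, so each name denotes the start and not the stage at harvest. The 6 conditions were 1 library each, so the comparisons below are unreplicated and carry no test.

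Cells were kept if they had 200 genes or more, no more than 2000 UMIs and a mitochondrial share of 30% or less. The libraries then held between 3401 and 19489 cells, 60671 in all, and between 1717136 and 9048728 UMIs. The median cell held 386 to 485 UMIs. Mitochondrial UMIs made up a median of 13.3% in the WT DN2a library and of 20.9% to 23.9% in the others. Levels are UMIs of a gene scaled to the UMIs of all cells in the usual CPM unit, with exact Poisson 95% intervals, and ratios are log2 values with exact 95% intervals. These intervals cover counting error only, not the difference between cultures. The 3 reverse-transcription wells of a library are technical parts of 1 culture and are given by their range. Bcl11b itself was lower in the ΔTE library of every start, by 1.39, 1.06 and 0.67 on the log2 scale from the DN1, DN2a and DN2b start, and the wells did not overlap. Il2ra, which encodes CD25, reached 1652 CPM in the WT and 1824 CPM in the ΔTE library of the DN1 start, although that start was sorted as CD25-.

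TCF-1, the product of Tcf7, and its relative LEF-1 are HMG-box proteins that bind DNA at TCF/LEF motifs and can recruit beta-catenin or Groucho-type corepressors. TCF-1 is induced by Notch signaling in early thymic progenitors, and GATA-3, a zinc-finger protein, is needed with it for the T lineage. Both are also needed in innate lymphoid cells, GATA-3 above all in ILC2s. Lef1 normally comes on later than Tcf7, around T-cell commitment. ETS-1 has roles in T cells, NK cells and ILCs, and c-Myb maintains progenitors and supports several steps of thymocyte development.

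By the GENCODE M21 annotation of GRCm38, Tcf7 (ENSMUSG00000000782) spans bases 52252371 to 52283014 of chromosome 11 (minus strand) and Gata3 (ENSMUSG00000015619) spans bases 9857078 to 9890034 of chromosome 2 (minus strand). Lef1 (ENSMUSG00000027985) spans bases 131110471 to 131224356 of chromosome 3 (plus strand), Ets1 (ENSMUSG00000032035) spans bases 32636221 to 32757820 of chromosome 9 (plus strand), and Myb (ENSMUSG00000019982) spans bases 21124935 to 21160984 of chromosome 10 (minus strand). The annotation puts 9 other genes over the members, most of them antisense or long non-coding. Only 2 of them, 4930412O13Rik and 9230102O04Rik at Gata3, are rows of the matrices, with 0 and 2 UMIs over all filtered cells. Whether reads of the other 7 were counted into the members cannot be told here.

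Gata3 and Lef1 were the members that stood higher in ΔTE cells from every start, so the 250 bases before their most upstream RefSeq start (GRCm38.p6) are shown. By GENCODE M21 the minus-strand Gata3 gene starts at base 9890034, so its window here lies inside the span given above. Capitals mark matches to any of 5 short motifs that were searched on both strands. The letters searched for the TCF/LEF family were CTTTGA. For zinc-finger proteins of the GATA family they were AGATAA. Proteins of the ETS family were represented by the letters CGGAAG, and the RUNX family by the letters TGTGGT. The letters searched for the MYB family were AACTGC. No 2 matches overlapped.
Gata3, minus strand, chr2:9878601-9878850: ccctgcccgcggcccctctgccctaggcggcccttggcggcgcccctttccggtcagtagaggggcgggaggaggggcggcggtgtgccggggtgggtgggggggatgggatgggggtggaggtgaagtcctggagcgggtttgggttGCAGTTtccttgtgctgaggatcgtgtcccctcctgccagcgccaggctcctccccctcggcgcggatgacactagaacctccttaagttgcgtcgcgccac
Lef1, plus strand, chr3:131110047-131110296: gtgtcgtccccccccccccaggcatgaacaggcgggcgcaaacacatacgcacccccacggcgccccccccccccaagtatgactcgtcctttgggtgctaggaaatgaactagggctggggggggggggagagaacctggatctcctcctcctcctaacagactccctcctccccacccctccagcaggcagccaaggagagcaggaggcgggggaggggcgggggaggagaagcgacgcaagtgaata
The Gata3 window held 1 match, the MYB letters on the opposite strand, and the Lef1 window held none of the 5. Of 32851 promoter windows of this length in the same table, 13.8% held the TCF/LEF letters, 9.99% the GATA letters, 13.6% the ETS letters, 14% the RUNX letters and 11.1% the MYB letters. The table had windows for 4 of the 5 members.

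Tcf7 gave many UMIs in every library, and its levels were close between the genotypes. WT cells had 319 CPM (1913 UMIs) from the DN1 start, 483 CPM (4371 UMIs) from the DN2a start and 538 CPM (1469 UMIs) from the DN2b start. ΔTE cells had 352 CPM (2079 UMIs), 482 CPM (3048 UMIs) and 490 CPM (841 UMIs), in the same order. The DN1 libraries were the 2 lowest and the 4 DN2 libraries lay close together. In the order of levels, ΔTE DN2b, WT DN2a and ΔTE DN2a did not differ beyond counting error.

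Gata3 formed a ladder, in which ΔTE cells stood above WT cells of the same start. WT cells had 88.1 CPM (528 UMIs) from the DN1 start, 155 CPM (1400 UMIs) from the DN2a start and 234 CPM (640 UMIs) from the DN2b start. ΔTE cells had 142 CPM (838 UMIs), 220 CPM (1390 UMIs) and 307 CPM (528 UMIs). The ΔTE library of one start was near the WT library of the next: ΔTE DN1 and WT DN2a differed by less than their counting error, and so did ΔTE DN2a and WT DN2b.

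Lef1 gave the fewest UMIs of the members in every library. WT cells had 6.84 CPM (41 UMIs) from the DN1 start, 21.9 CPM (198 UMIs) from the DN2a start and 50.9 CPM (139 UMIs) from the DN2b start. ΔTE cells had 13.7 CPM (81 UMIs), 46.2 CPM (292 UMIs) and 109 CPM (188 UMIs). The order again ran by start with ΔTE above WT, and WT DN2b and ΔTE DN2a did not differ beyond counting error.

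Barcodes of at most 20 UMIs, used as a reference for RNA outside intact cells, carried the members too. They gave Tcf7 at 338 to 528 CPM, Myb at 454 to 829 CPM and Gata3 at 76.0 to 153 CPM. From the DN2b start these were below the cells beyond counting error in both genotypes, with upper limits for Tcf7 of 397 CPM (WT) and 445 CPM (ΔTE). From the DN1 and DN2a starts the Tcf7 intervals of cells were not wholly above those of the near-empty barcodes in either genotype. With WT DN1 the latter gave 387 CPM (332 to 448). For Gata3 the same held in the WT DN1 (76.0 CPM, 52.9 to 106), WT DN2a (148 CPM, 113 to 191) and ΔTE DN1 (104 CPM, 76.1 to 140) libraries. Myb was likewise not wholly above them in the WT DN1, WT DN2a and ΔTE DN2a libraries. For Lef1 the near-empty barcodes of the WT libraries gave 13.03 CPM (4.78 to 28.4) with DN1, 27.2 CPM (13.6 to 48.6) with DN2a and 27.6 CPM (14.3 to 48.2) with DN2b. Those of the ΔTE libraries gave 16.2 CPM (6.53 to 33.4) with DN1, 38.9 CPM (23.0 to 61.4) with DN2a and 46.1 CPM (25.8 to 76.1) with DN2b. Only the ΔTE DN2b cells had an interval for Lef1 (94.4 to 126 CPM) that lay wholly above that of the near-empty barcodes. By this measure, the overlap of separate intervals, Lef1 was not set apart from background in the other 5 libraries, and values from them are given with that limit. Ets1 was at 45.6 to 126 CPM in near-empty barcodes and in no library above them beyond counting error, and from the DN1 start it was below them.

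**Figure D1:**
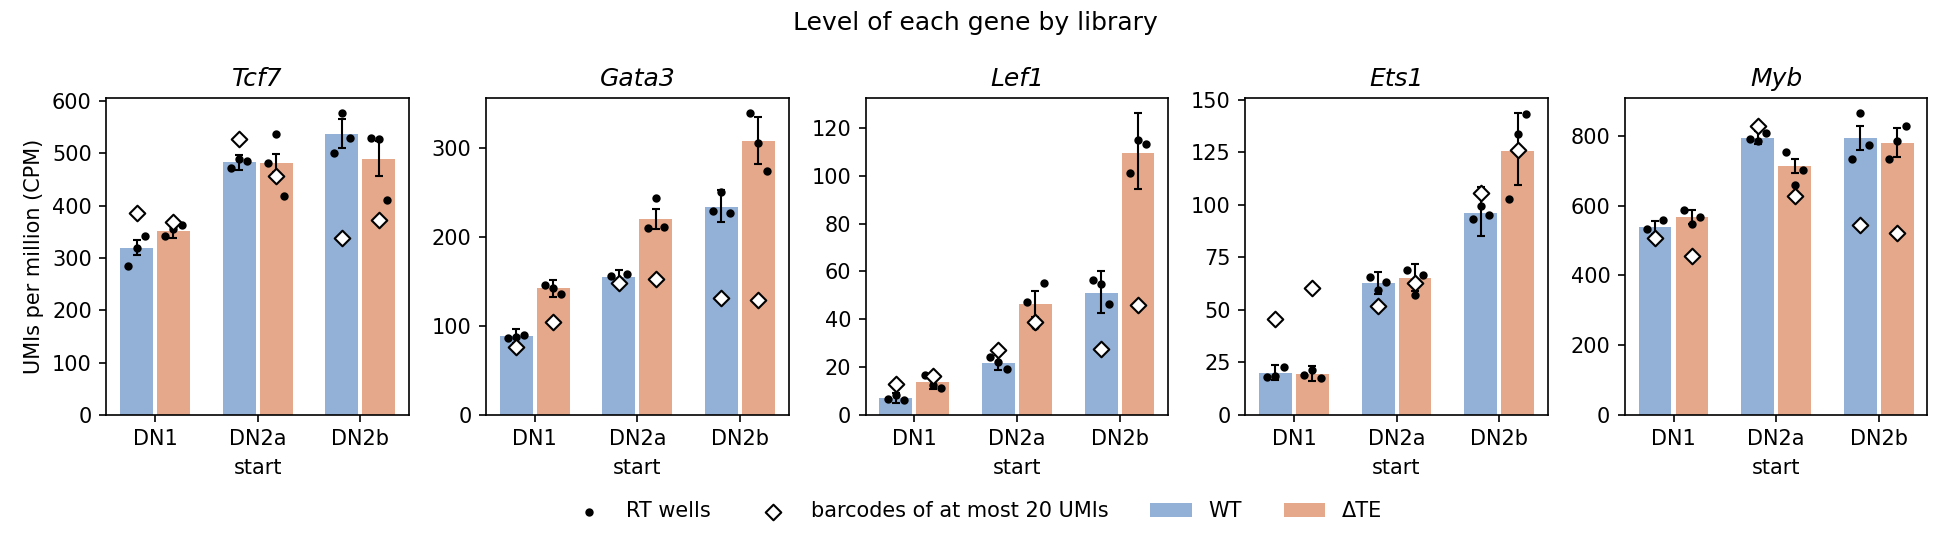
Level (CPM) of each gene in the filtered cells of each library, by start (x axis) and genotype (colors). Bars are library sums with exact Poisson 95% intervals, dots are the 3 reverse-transcription wells and diamonds are barcodes of at most 20 UMIs of the same library. Gata3 and Lef1 wells of ΔTE lie above all WT wells of the same start, with Gata3 at 88.1 against 142 CPM from the DN1 start.

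Ets1 differed more between starts than between genotypes, at 20.02 CPM (120 UMIs), 62.6 CPM (566 UMIs) and 96.3 CPM (263 UMIs) in WT cells and 19.3 CPM (114 UMIs), 65.0 CPM (411 UMIs) and 126 CPM (216 UMIs) in ΔTE cells from the DN1, DN2a and DN2b starts. The genotypes did not differ beyond counting error from the DN1 and DN2a starts. Myb was at 538 CPM (3225 UMIs), 795 CPM (7190 UMIs) and 793 CPM (2167 UMIs) in WT cells, and at 567 CPM (3347 UMIs), 714 CPM (4511 UMIs) and 780 CPM (1340 UMIs) in ΔTE cells. The 3 highest Myb libraries, WT DN2a, WT DN2b and ΔTE DN2b, did not differ beyond counting error.

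Within a genotype, cells from the DN2b start had higher levels than cells from the DN1 start for all 5 genes. From the DN1 start, Tcf7, Gata3, Lef1 and Ets1 in both genotypes, and Myb in WT, were not wholly above the near-empty barcodes by interval. Their ratios to that start are therefore given as differences in level only, and the part of background in them was not tested. The log2 ratio of the DN2b to the DN1 start for Lef1 was 2.89 in WT (2.38 to 3.43) and 3.00 in ΔTE (2.61 to 3.39). For Ets1 it was 2.27 (1.95 to 2.59) and 2.70 (2.37 to 3.04). Gata3 had 1.41 (1.24 to 1.58) and 1.11 (0.95 to 1.27). Tcf7 had 0.75 (0.65 to 0.85) and 0.47 (0.36 to 0.59), and Myb had 0.56 (0.48 to 0.64) and 0.46 (0.37 to 0.55). The median gene of at least 50 CPM moved by only -0.04 and -0.05 between these starts, whereas it moved by 0.09 between the WT DN1 and DN2a starts and by -0.14 between the WT DN2a and DN2b starts. For Tcf7 and Myb the larger part of the difference in level lay between the DN1 and DN2a starts, with 0.60 and 0.56 in WT and 0.45 and 0.33 in ΔTE. Between the DN2a and DN2b starts Tcf7 differed by 0.15 (0.07 to 0.24) in WT and by 0.02 (-0.09 to 0.13) in ΔTE, and Myb by 0.00 (-0.07 to 0.07) and 0.13 (0.04 to 0.22). With no mitochondrial limit the Tcf7 step between these starts was -0.22 in WT cells, and that of Myb in ΔTE cells -0.06.

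Gata3 stood higher in ΔTE than in WT cells from each start, with log2 ratios of 0.69 (0.53 to 0.85) for DN1, 0.51 (0.40 to 0.62) for DN2a and 0.39 (0.22 to 0.56) for DN2b. Its wells ranged from 86.5 to 89.9 CPM in WT and from 136 to 146 CPM in ΔTE from the DN1 start. From the DN2a start they ranged from 150.2 to 159 CPM and from 210.2 to 243 CPM, and from the DN2b start from 227 to 250.3 CPM and from 274 to 339 CPM. No ΔTE well overlapped a WT well of its start. From the DN1 start in both genotypes, and from the DN2a start in WT, the Gata3 interval was not wholly above that of the near-empty barcodes. A change of 1.2-fold or more toward ΔTE was seen in 3.29% of the 4281 genes tested from the DN1 start, in 2.4% of 4504 from the DN2a start and in 12.3% of 4185 from the DN2b start, where tested means a mean of at least 50 CPM over both genotypes. In the opposite direction the shares were 2.99%, 16.6% and 12.9%. Non-overlap of wells was seen in 19.7%, 24.1% and 19.1% of tested genes, counted over both directions, unlike the shares past 1.2-fold, which are per direction. Among 3904 genes tested in every start, 0.589% (23 genes) passed 1.2-fold toward ΔTE in all 3, and Gata3 was the only member among them. The values depended on the cells kept. With at most 15% mitochondrial UMIs they were 0.37 from the DN1 start, 0.87 from the DN2a start and -0.13 from the DN2b start, the last from 595 WT and 382 ΔTE cells. With no such limit the DN2a value was 0.32. From the DN2b start, without cells holding UMIs of at least 2 ILC or NK markers, it was 0.16.

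Lef1 differed most between the genotypes, with log2 ratios of 1.01 (0.45 to 1.58), 1.08 (0.81 to 1.35) and 1.11 (0.78 to 1.43) from the DN1, DN2a and DN2b starts. Wells ranged from 6.05 to 8.32 CPM in WT and from 11.4 to 16.6 CPM in ΔTE from the DN1 start. They ranged from 19.3 to 24.4 CPM and from 37.1 to 55.03 CPM from the DN2a start, and from 46.2 to 56.4 CPM and from 101 to 115 CPM from the DN2b start, with no overlap. Only the DN2b libraries had Lef1 at 50 CPM on average, so it entered the tested genes only there. In all libraries but ΔTE DN2b the Lef1 interval was not wholly above that of the near-empty barcodes. When the limit was lowered to 10 CPM, a choice made after the values were seen so that Lef1 entered, 1.09% of 8422 genes (92 genes) passed 1.2-fold toward ΔTE in all 3 starts, Gata3 and Lef1 among them. Every ΔTE well was above every WT well in all 3 starts for 0.677% of these genes (57 genes), again with both. The ratio from the DN2b start was 0.77 with no mitochondrial limit and 0.75 with at most 15%.

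Of the other 3 members, only Ets1 from the DN2b start was past 1.2-fold. The ratio of Tcf7 was 0.14 with DN1 (0.05 to 0.23), 0.00 with DN2a (-0.07 to 0.06) and -0.13 with DN2b (-0.26 to -0.01), and wells of the genotypes overlapped in each. Myb had 0.08 (0.01 to 0.15), -0.15 (-0.21 to -0.10) and -0.02 (-0.12 to 0.08), and its wells were apart only from the DN2a start, at 785 to 809 CPM in WT and 659 to 753 CPM in ΔTE. Ets1 had -0.05 (-0.43 to 0.33), 0.06 (-0.13 to 0.24) and 0.39 (0.12 to 0.65), and from the DN2b start its wells ranged from 93.4 to 99.6 CPM in WT and from 103 to 143 CPM in ΔTE. From the DN2a start the median tested gene was itself at -0.13 on the log2 scale, so Myb was only 0.02 below it there and Tcf7 0.13 above it. The WT DN2a library was also the one with fewer mitochondrial UMIs. With TMM scaling the DN2a ratios were -0.01 for Myb and 0.14 for Tcf7. Of the members tested, 1 of 3 from the DN1 start, 1 of 4 from the DN2a start and 3 of 5 from the DN2b start were past 1.2-fold, each toward ΔTE. The shares of all tested genes past it in that direction were 3.29%, 2.4% and 12.3%. Ets1, counted from the DN2b start, was not above the near-empty barcodes, which held it at 126 CPM (90.5 to 171) in ΔTE.

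**Figure D2:**
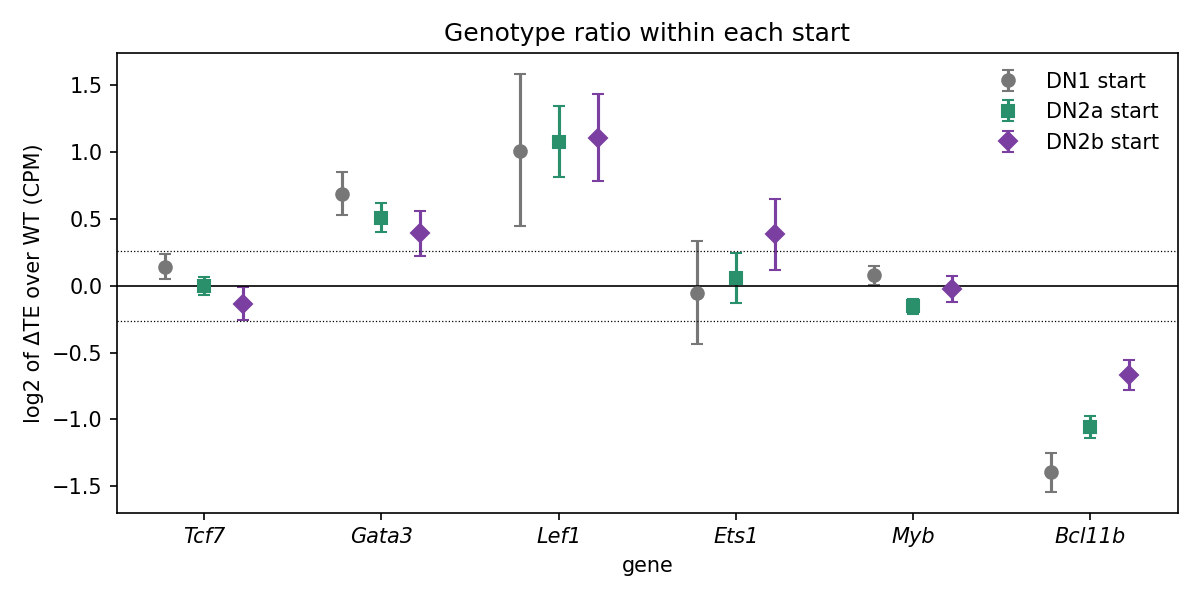
The log2 ratio of ΔTE to WT levels (y axis) of each gene and of Bcl11b (x axis) for the DN1, DN2a and DN2b starts (symbols). Bars are exact 95% intervals of counting error and dotted lines mark 1.2-fold. Gata3 (0.39 to 0.69) and Lef1 (1.01 to 1.11) lie above 0 in every start and Bcl11b below it.

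Of 12 paralogs, 4, 5 and 4 were tested from the DN1, DN2a and DN2b starts, and none was past 1.2-fold toward ΔTE, beside 3.29%, 2.4% and 12.3% of all tested genes. From the DN1 start 0 were lower, from the DN2a start 3 and from the DN2b start 2, beside 2.99%, 16.6% and 12.9%. These numbers are too small to set the paralogs apart. Their median log2 ratios were -0.12, -0.29 and -0.20, beside 0.00, -0.13 and -0.01 over all genes tested. Etv6, an ETS-family repressor, was at 1298 CPM (WT) and 999 CPM (ΔTE) from the DN2a start (log2 ratio -0.38, -0.42 to -0.33) and at 1200.5 and 823 CPM from the DN2b start (-0.54, -0.63 to -0.45). Tcf7l2, the TCF family member best known from the gut, was at 66.1 and 42.1 CPM from the DN2a start (-0.65, -0.86 to -0.44). Gata1 and Gata2 were near absent, with at most 2.33 CPM in any library.

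RNA of most tested partners differed little between the genotypes. Of 9 listed partners, 7 were tested from each start, and only Tox was past 1.2-fold, toward ΔTE from the DN2a start (662 and 858 CPM, log2 ratio 0.38, 0.32 to 0.43) and from the DN2b start (899 and 1084 CPM, 0.27, 0.18 to 0.36). Tox encodes an HMG-box factor used by developing T cells and ILCs. Its wells overlapped between the genotypes from both starts. Tle1 and Zfpm1 had means below 50 CPM and were not tested. From the DN1, DN2a and DN2b starts Tle1 had ratios of -0.24 (-0.55 to 0.07), -0.88 (-1.20 to -0.56) and -0.78 (-1.44 to -0.16). Its wells were apart from the DN2a and DN2b starts. Zfpm1 had 0.52 (0.26 to 0.78), 0.05 (-0.18 to 0.27) and 0.26 (-0.15 to 0.67), with wells apart only from the DN1 start. Over all tested genes, 3.29%, 2.4% and 12.3% were past 1.2-fold toward ΔTE from the DN1, DN2a and DN2b starts. Toward WT the shares were 2.99%, 16.6% and 12.9%. Median ratios of the partners were 0.03, -0.13 and 0.12.

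Genes known to lie downstream of the members did not share 1 direction. Of 17 such genes, 8, 10 and 11 were tested from the DN1, DN2a and DN2b starts. Toward ΔTE 2, 4 and 5 of them were past 1.2-fold, beside 3.29%, 2.4% and 12.3% of all tested genes. Toward WT 1 was from each start, beside 2.99%, 16.6% and 12.9%. It was Cd3g, which encodes a chain of the T-cell receptor complex. Cd3g was at 78.7 CPM (WT) and 25.8 CPM (ΔTE) from the DN1 start, at 309 and 134 CPM from the DN2a start and at 529 and 439 CPM from the DN2b start. Those higher in ΔTE included Il7r, the receptor for IL-7, in all 3 starts (log2 ratios 0.43, 0.34 and 0.54), and Zbtb16, which encodes the ILC factor PLZF (0.56, 1.02 and 1.07). Themis, a gene of T-cell receptor signaling, was at 47.2 CPM (WT) and 110.3 CPM (ΔTE) from the DN2a start, and Id2, an inhibitor of E proteins, at 63.3 and 199 CPM from the DN2b start. The median ratios of the list were 0.18, 0.08 and 0.10.

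Cells in which a Bcl11b UMI was found were compared with the other cells of the same library. A Bcl11b UMI was found in 9.995%, 18.7% and 31.8% of WT cells from the DN1, DN2a and DN2b starts and in 4.11%, 10.9% and 20.02% of ΔTE cells. Many cells without one may express the gene, since a cell held a median of only 386 to 485 UMIs, and some UMIs are background. After thinning to 300 UMIs, stromal-marker cells had one in 2.65%, 3.55% and 3.21% of cells in the WT libraries against 6.03%, 13.5% and 20.9% of all cells. In the ΔTE libraries the shares were 0.662%, 1.30% and 7.5% against 2.42%, 6.89% and 13.2%. In the ΔTE DN1 library the near-empty barcodes held Bcl11b at 97.4 CPM (70.2 to 132), not below the 89.3 CPM of cells. The split is therefore one by a detected UMI, and the part of background UMIs in it was not tested. Cells with a Bcl11b UMI were deeper, with a median of 567.5 against 453 UMIs in the WT DN1 library and of 492 against 413 in the ΔTE DN2b library. Ratios of Myb were therefore also standardised to the depth of the cells with a Bcl11b UMI.

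Myb was higher in cells with a Bcl11b UMI in all 6 libraries. Its log2 ratio was 0.30 (0.15 to 0.44), 0.23 (0.15 to 0.31) and 0.18 (0.05 to 0.30) in WT cells from the DN1, DN2a and DN2b starts and 0.32 (0.11 to 0.52), 0.28 (0.17 to 0.40) and 0.37 (0.20 to 0.55) in ΔTE cells. Standardised to depth the ratios lay between 0.21 and 0.37. Thinned to 300 UMIs they were 0.090 in the ΔTE DN2a and 0.16 in the ΔTE DN2b library, and without stromal or myeloid marker cells 0.14 in the WT DN2a library. A ratio past 1.2-fold was seen for 10.7%, 5.43% and 10.4% of tested genes in the 3 WT libraries and for 18.9%, 11% and 18.4% in the ΔTE libraries, in the same order, and Myb was past it in 4 of the 6.

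Tcf7 was higher in cells with a Bcl11b UMI from the earlier WT starts. It was at 443 CPM with and 302 CPM without one in the WT DN1 library (0.55, 0.37 to 0.72) and at 558 and 463 CPM in the WT DN2a library (0.27, 0.17 to 0.37), a ratio that was 0.14 without stromal or myeloid marker cells. From the WT DN2b start the ratio was 0.13 (-0.03 to 0.28). In ΔTE cells it was 0.08 (-0.21 to 0.35), 0.15 (0.00 to 0.30) and 0.01 (-0.22 to 0.24). The difference between the genotypes in this ratio was not tested.

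Ets1 behaved like Tcf7 in WT cells, with 42.7 CPM (31 UMIs) against 16.9 CPM (89 UMIs) in the WT DN1 library (1.34, 0.70 to 1.94) and 87.7 against 55.7 CPM in the WT DN2a library (0.66, 0.39 to 0.92). In the other 4 libraries its interval held 0. Gata3 had an interval above 0 in 1 library, WT DN2a, at 177 CPM with and 149 CPM without a Bcl11b UMI (0.26, 0.08 to 0.43). In the ΔTE DN2b library it was at 266 CPM with and 320.0 CPM without one (-0.26, -0.58 to 0.05). Lef1 had an interval above 0 only in the ΔTE DN1 library, from 13 UMIs in 423 cells (43.8 CPM) against 68 UMIs in 9871 cells (12.1 CPM), a log2 ratio of 1.85 (0.87 to 2.72).

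**Figure D3:**
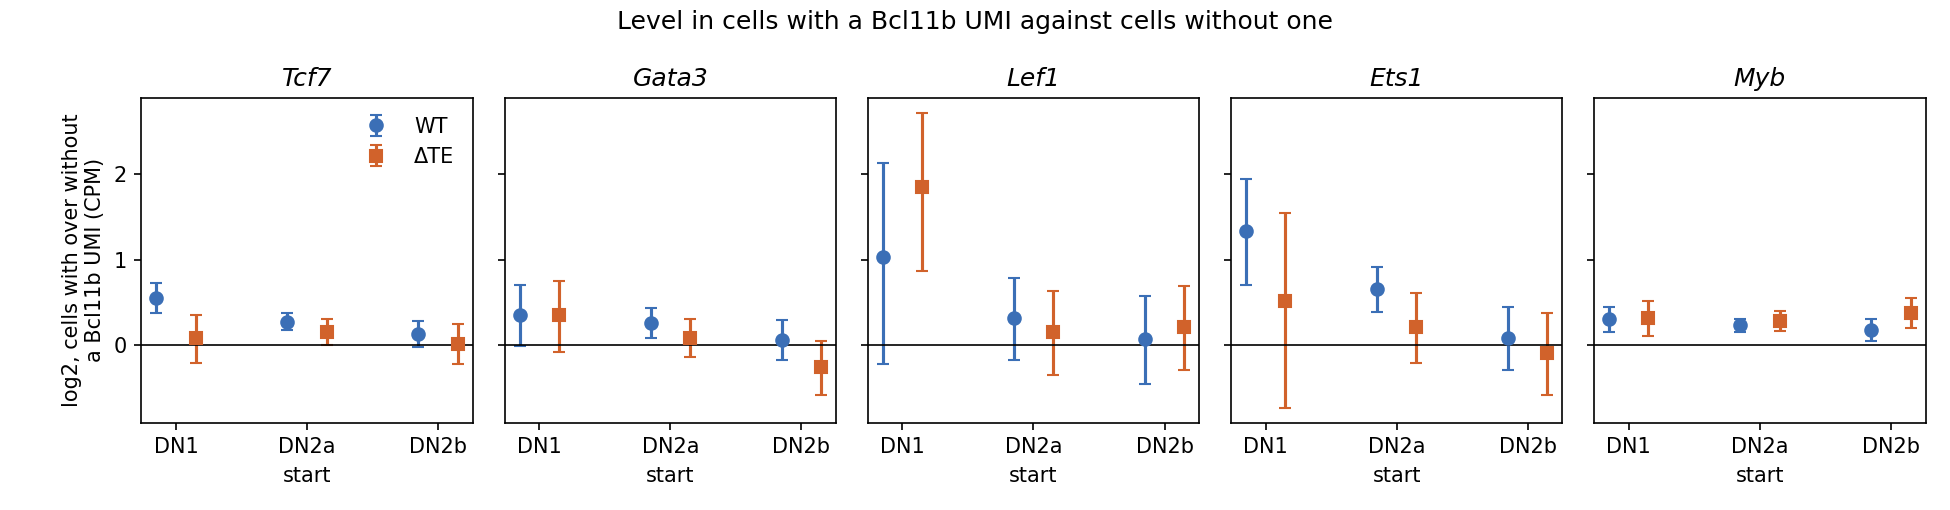
The log2 ratio of the level in cells with a Bcl11b UMI to that in cells without one (y axis), for each gene, by start (x axis) and genotype (colors), with exact 95% intervals. Myb lies above 0 in all 6 libraries, between 0.18 and 0.37, and Tcf7 and Ets1 are highest in WT cells from the DN1 start (0.55 and 1.34).

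The genotype difference of Lef1 was present on both sides of this split. In cells without a Bcl11b UMI, Lef1 was at 6.07 CPM (WT) and 12.1 CPM (ΔTE) from the DN1 start (1.00, 0.37 to 1.65), at 20.8 and 45.5 CPM from the DN2a start (1.13, 0.83 to 1.43) and at 50.03 and 106 CPM from the DN2b start (1.08, 0.68 to 1.48). In cells with one the ratios were 1.82 (0.48 to 3.23), 0.97 (0.35 to 1.59) and 1.22 (0.63 to 1.81). Gata3 differed in cells without a Bcl11b UMI by 0.72 (0.55 to 0.89), 0.55 (0.43 to 0.68) and 0.47 (0.27 to 0.67). In cells with one it differed by 0.71 (0.18 to 1.23), 0.38 (0.12 to 0.64) and 0.15 (-0.20 to 0.48). Tcf7 in cells with a Bcl11b UMI had ratios of -0.26, -0.08 and -0.20, each with an interval that held 0.

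When cells were also divided by a UMI of Zbtb16, the levels of Gata3 were as follows. In ΔTE cells from the DN2a start it was at 326 CPM (295 to 360) in the 1904 cells with Zbtb16 but no Bcl11b, 210 CPM (176 to 248) in the 1036 cells with Bcl11b but no Zbtb16, 306 CPM (232 to 396) in the 232 cells with both and 188 CPM (175 to 201) in the 8422 cells with neither. In WT cells from the same start the values were 220 CPM (187 to 257), 168 CPM (149 to 189), 255 CPM (191 to 333) and, with neither, 140.4 CPM (131 to 150). The WT intervals for Zbtb16 alone and Bcl11b alone overlapped. Among WT DN2b cells, Gata3 was at 429 CPM (335 to 540) with Zbtb16 alone, 222 CPM (192 to 255) with Bcl11b alone and 209 CPM (187 to 233) with neither. Among ΔTE DN2b cells the values were 482 CPM (399 to 577) with Zbtb16 alone, 251 CPM (201 to 310) with Bcl11b alone and 283 CPM (252 to 317) with neither.

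Markers of the cell types that these cultures could hold were used to place the members. A cell was put in a group when it held UMIs of at least 2 genes of 1 marker list and fewer than 2 of every other list, which left 79.3% to 83.4% of cells in no group. At this depth the groups are ranges of cells and not types. Cells with T-cell markers were few, 0.155% to 3.603% of a library, in the WT libraries most often through Cd3g. Cells with ILC or NK markers made up 4.47%, 5.01% and 6.34% of WT cells and 6.65%, 10.0% and 13.8% of ΔTE cells from the DN1, DN2a and DN2b starts, in the WT libraries most often through Gzma and Gzmb. Cells with stromal markers, which the OP9-DL1 layer can contribute, made up 8.95% of the WT DN2a library, 5.63% of the ΔTE DN2a library and 1.32% to 3.26% of the others.

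Gata3 was highest in cells with ILC or NK markers when the starts were summed. It reached 284 CPM (254 to 317) there with WT and 395 CPM (364 to 428) with ΔTE, against 146 and 187 CPM in cells of no group. Cells with T-cell markers had 229 CPM (177 to 291) and 163 CPM (102 to 246), and cells with progenitor markers 97.9 and 119 CPM. In the WT DN1 library, however, cells with ILC or NK markers had 93.8 CPM, close to the 92.0 CPM of cells of no group. Sums over starts mix the starts in proportions that differ between the genotypes, so the ratios were also taken within a start. In cells with ILC or NK markers the genotype ratio (log2, ΔTE over WT) was 1.34 (0.77 to 1.94), 0.38 (0.11 to 0.67) and 0.28 (-0.05 to 0.63) from the DN1, DN2a and DN2b starts. In cells of no group it was 0.65 (0.47 to 0.83), 0.42 (0.29 to 0.54) and 0.13 (-0.08 to 0.34). The share of cells with ILC or NK markers was larger in ΔTE from every start, and its part in the Gata3 difference was not tested beyond these values.

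Lef1 was at 32.9 CPM (23.1 to 45.3) in WT against 69.5 CPM (57.0 to 84.0) for ΔTE with ILC or NK markers. In cells with T-cell markers it was at 62.4 CPM (18 UMIs) and 59.1 CPM (8 UMIs). From the DN2a start, cells with ILC or NK markers had 23.1 CPM (13 UMIs) in WT and 84.4 CPM (64 UMIs) in ΔTE (1.87, 1.00 to 2.86). From the DN2b start they had 99.6 and 109 CPM (0.13, -0.71 to 1.01). In cells of no group the ratios were 1.01 (0.36 to 1.70), 1.13 (0.81 to 1.45) and 1.21 (0.84 to 1.58), so a Lef1 difference was also present outside the marker groups. The 325 WT and 237 ΔTE cells with myeloid markers had no UMI of Lef1, which allows up to 19.9 CPM in WT and 23.3 CPM in ΔTE by the exact interval.

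Summed over the starts, Ets1 was highest in cells with T-cell markers, at 159 CPM (117 to 213) in WT against 207 CPM (138 to 299) for ΔTE, against 61.3 and 63.7 CPM in cells with ILC or NK markers and 55.5 and 56.6 CPM in cells of no group. Myb was also highest there in WT cells, at 1071 CPM (955 to 1198) against 760 CPM in cells of no group, while in ΔTE cells its 843 CPM (695 to 1013) overlapped the 706 CPM (689 to 722) of cells of no group. Tcf7 was at 544 CPM (462 to 636) and 429 CPM (326 to 554) in cells with T-cell markers and at 535 and 491 CPM in cells with ILC or NK markers, which did not differ beyond counting error within a genotype. From the DN2b start, cells with ILC or NK markers had less Tcf7 in ΔTE (497 against 702 CPM, -0.50, -0.84 to -0.16) and less Myb (494 against 688 CPM, -0.48, -0.82 to -0.13). The sums over starts mix libraries of different levels. Among WT DN2b cells alone, Ets1 had 222 CPM (145 to 325) with T-cell markers, against 92.3 CPM (79.9 to 106) for those of no group. Among ΔTE DN2b cells the intervals overlapped, with 207 CPM (107 to 361) beside 119 CPM (101 to 140). Myb in WT DN2b cells had 1159 CPM (973 to 1371) with T-cell markers and 828 CPM (790 to 868) in no group.

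**Figure D4:**
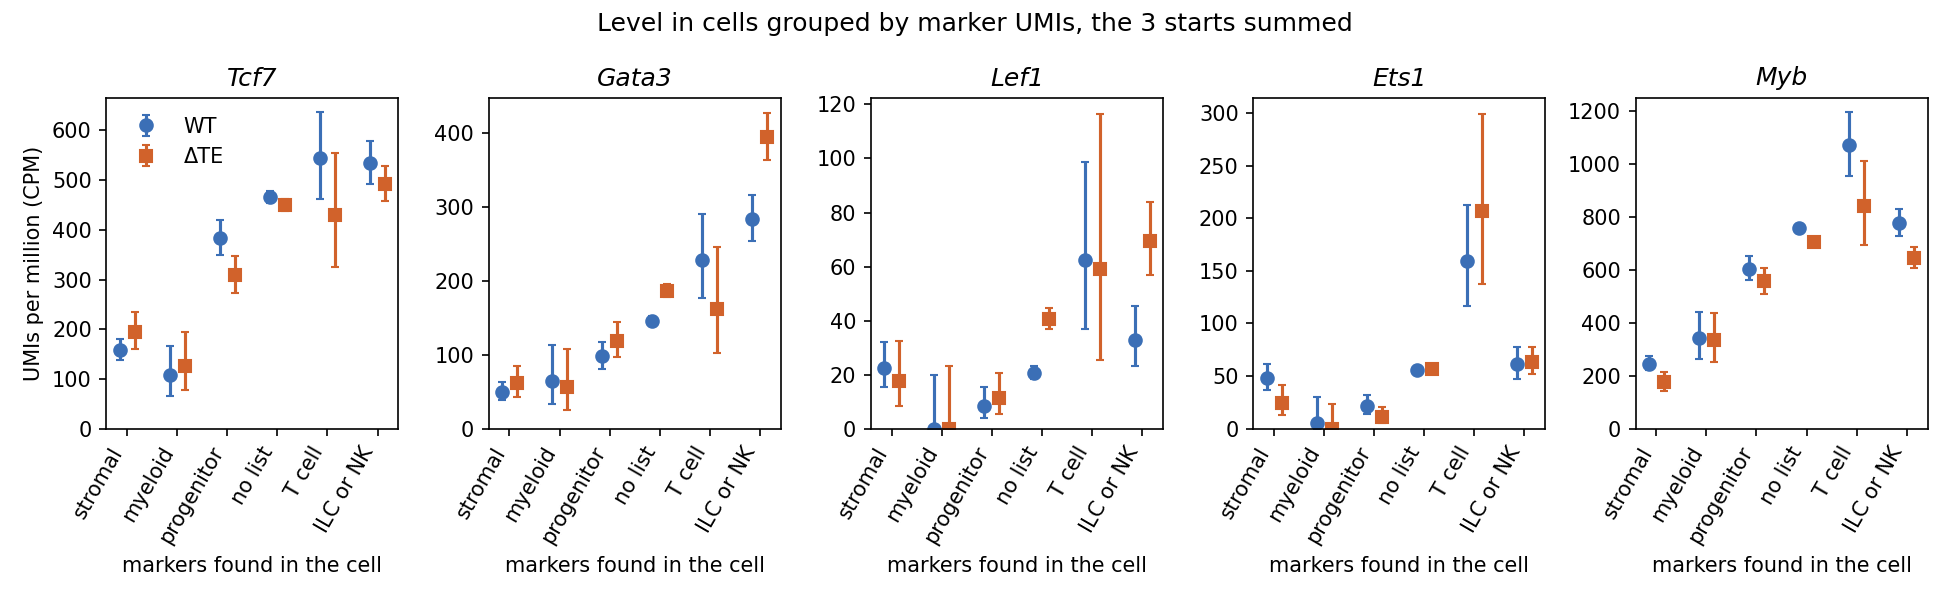
Level (CPM) of each gene in cells grouped by the marker list of which they held at least 2 genes (x axis; no list means fewer than 2 of every list), the 3 starts summed, for WT (circles) and ΔTE (squares) with exact Poisson 95% intervals. Gata3 is highest in cells with ILC or NK markers (284 and 395 CPM) and Ets1 in cells with T-cell markers (159 and 207 CPM).

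Stromal-marker cells held UMIs of the members too, and whether these came from the RNA of other cells or from their own was not tested. They held Tcf7 at 159 CPM (WT) and 195 CPM (ΔTE), Myb at 247 and 177 CPM, Gata3 at 50.2 and 61.5 CPM, Ets1 at 48.0 and 24.6 CPM and Lef1 at 22.6 CPM (15.3 to 32.01) and 17.6 CPM (8.42 to 32.3). The Lef1 value in WT stromal-marker cells was not below that of WT cells of no group, 20.7 CPM (18.3 to 23.3), whereas in ΔTE cells of no group it was 40.6 CPM (36.8 to 44.7).

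Shares of cells with a UMI were compared after each cell was thinned to 300 UMIs, with shallower cells left out (462 to 4723 per library). Gata3 was found in 2.44% (2.14 to 2.77), 4.16% (3.84 to 4.49) and 6.25% (5.56 to 7.01) of WT cells from the DN1, DN2a and DN2b starts and in 4.03% (3.64 to 4.45), 5.996% (5.54 to 6.48) and 7.21% (6.30 to 8.21) of ΔTE cells. Unthinned, these shares were 4.23%, 6.18%, 10.1%, 6.76%, 9.78% and 11.6%. The intervals are exact binomial (Clopper-Pearson) ones. From the DN2b start the intervals overlapped.

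Lef1 was found in 0.238%, 0.684% (0.557 to 0.831) and 1.31% (0.999 to 1.70) of WT cells and in 0.345%, 1.29% (1.08 to 1.53) and 3.23% (2.62 to 3.94) of ΔTE cells after thinning. Unthinned, it was found in 0.339%, 0.995%, 2.56%, 0.699%, 2.29% and 4.70% of cells in the same order. In stromal-marker cells it was found in 0.921% (14 of 1520 cells) in the WT DN2a library and 0.162% (1 of 617 cells) in the ΔTE DN2a library, with median depths of 558 and 598 UMIs before thinning against 445 and 493 UMIs in all cells. The WT DN2a share was not above that of the stromal-marker cells, and the DN1 shares were not above those of the stromal-marker cells (2 of 226 in WT and 2 of 151 in ΔTE). The ΔTE DN2a share was above that of the stromal-marker cells, though the interval of the Lef1 level there was not wholly above that of the near-empty barcodes. In the ΔTE DN2b library only 40 stromal-marker cells were deep enough, and the 0 with Lef1 among them allows up to 8.81%.

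Levels of one member were compared between cells with and without a UMI of another, and for most pairs the interval held 0 in most libraries. Cells with a Tcf7 UMI had more Gata3 than cells without one in 6 of 6 libraries, by 0.20 to 0.58 on the log2 scale, with an interval above 0 in 4. Cells with a Gata3 UMI likewise had more Lef1 in 6 libraries, but with an interval above 0 in 1. Cells with a Tcf7 UMI had more Ets1 in only 2 of 6. The pair of Myb and Gata3 was uneven, with Gata3 higher in Myb-positive cells in 4 libraries and an interval below 0 in 1. These ratios are not standardised to depth and use all filtered cells, those with stromal or myeloid markers among them. The part of depth and of the mix of cells in them was not tested.

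Over the 6 libraries the members fell into patterns that were alike in pairs, where the 6 points share their depth and sorting. Gata3 and Lef1 had a Pearson r of 0.99 on log2(CPM + 1), and Tcf7 and Myb one of 0.97. Gata3 and Myb were the least alike at 0.80. Among 4336 genes with a mean of at least 50 CPM, those with the highest r to Tcf7 were Map7d1, Arpp21 and Tmtc2, and those to Gata3 were Kmt5a, Mex3a and Itgae. Near to Lef1 were Slc9a9 and Il17rb, those to Ets1 were Rgcc, Cd247 and Plin3, and those to Myb were Prelid1, Ctbp1 and Trim24, and these values of r lay between 0.989 and 0.997. With 6 libraries such values are descriptions only.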

How the data were processed

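The authors deposited, per library, a matrix of UMI counts per gene and barcode, without normalization and before cell filters. The submitters' processing notes name build mm9, and the aligner and annotation are not given in the sources used here. Positions were looked up by Ensembl identifier in GENCODE M21, a GRCm38 annotation (28008 of 28048 matched), so they are not those of the authors' build, and promoter windows come from RefSeq (GRCm38.p6). No reads were aligned.

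Cells were filtered as in the methods of the study (at least 200 genes, at most 2000 UMIs, at most 30% mitochondrial UMIs). No doublet caller was run beyond the 2000-UMI limit, and 0 barcodes were shared between libraries. UMIs were summed over cells and scaled to CPM. Ratios have exact conditional (Clopper-Pearson) 95% intervals. With 1 library per condition there was no test and no p-value. A gene counted as called past 1.2-fold, among genes with a mean of at least 50 CPM, and the ratios were checked on simulated counts. Thinning used random seed 1. Depth standardisation weighted cells without a Bcl11b UMI in bins of 100 UMIs by the UMIs of cells with one. Trbc2, on the T-cell marker list, was not analysed here, which left 7 of 8.

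Named genes were the members, Bcl11b, sorting markers, overlapping genes, listed paralogs, partners and downstream genes, and the 3 genes most like each member. One of the genes most like Lef1 is not reported here. The members and lists were chosen with earlier results of these data known. Alternatives changed the filters, the scaling (TMM, edgeR 4.0.16), the cells used and the wells, and a lower limit of 10 CPM was added after seeing the data. Other tools were Python 3.11.15, numpy 2.4.6, scipy 1.17.1, pandas 2.3.3 and matplotlib 3.10.9.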

Additional observations from a re-analysis of the deposited data

Results flagged for a closer look

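Barcodes left out by the filters also held the members. Among barcodes with over 30% mitochondrial UMIs, Gata3 was higher in ΔTE than in WT beyond counting error from every start, with log2 ratios of 0.61, 1.23 and 0.82 from the DN1, DN2a and DN2b starts. Tcf7 gave 0.22, 0.70 and 0.22 there, Myb 0.16 from the DN1 start, and Lef1 and Ets1 0.54 and 0.43 from the DN2b start. Lef1 from the DN2a start was at -0.28 (-1.18 to 0.78) in the same barcodes, from 11 UMIs in WT and 90 in ΔTE, where the filtered cells were higher in ΔTE. The Gata3 value of 1.23 came from 15 UMIs in 518 WT barcodes and 349 UMIs in 4240 ΔTE barcodes. Among barcodes with over 2000 UMIs, Gata3 gave 1.08 (0.42 to 1.74) from the DN2a start, from 35 UMIs in WT and 50 in ΔTE. Lef1 gave 1.63 (0.06 to 3.18) from the DN2b start, from 9 UMIs in 51 WT barcodes and 8 UMIs in 15 ΔTE barcodes.

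In the filtered cells, Tcf7 lay on opposite sides of 0 in different starts, at 0.14 from the DN1 start and -0.13 from the DN2b start, and so did Myb, at 0.077 from the DN1 start and -0.15 from the DN2a start. The difference between starts was not tested.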

How the results depend on the processing

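No paired analysis was possible because each condition was 1 library and the results come from no test. Of 240 alternative values for the 15 genotype ratios, 210 stayed within the counting-error interval of the reported ratio and 28 lay outside it. The other 2 also changed direction, which was counted only where that interval excluded 0. For the comparison by a Bcl11b UMI the counts were 222, 16 and 0 of 238, and for the steps between starts 38, 20 and 2 of 60. The levels themselves moved more often, with 41, 49 and 0 of 90. For levels in cells grouped by markers the counts were 25, 25 and 0 of 50. The causes were not tested. Thinning gave no value for Lef1 and Ets1 in the ΔTE DN1 library.

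Genotype ratios, with at most 15% mitochondrial UMIs, were 0.010 for Tcf7 and 0.37 for Gata3 (DN1 start), 0.15 and 0.87 (DN2a start), and -0.13 for Gata3, 0.75 for Lef1 and -0.24 for Myb (DN2b start). With no such limit they were -0.14 for Tcf7, 0.32 for Gata3 and -0.33 for Myb (DN2a start) and 0.77 for Lef1 (DN2b start). From the DN2a start, TMM gave 0.14, 0.65 and -0.013 for Tcf7, Gata3 and Myb, totals without mitochondrial UMIs gave 0.12, 0.63 and -0.029, and Tcf7 was -0.079 without stromal-marker cells. In cells with a Bcl11b UMI, Tcf7 was -0.26, Lef1 1.82 and Ets1 -0.67 (DN1 start), Tcf7 -0.079, Gata3 0.38, Ets1 -0.25 and Myb -0.087 (DN2a start), and Gata3 0.15 and Myb 0.15 (DN2b start). Gata3 from the DN2b start was 0.16 without cells with at least 2 ILC or NK markers. Leaving out 1 well at a time gave -0.070 to 0.059 for Tcf7 and -0.23 to -0.11 for Myb from the DN2a start.

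Ratios by a Bcl11b UMI, after thinning to 300 UMIs, were 0.81 for Tcf7 and -0.22 for Gata3 (WT DN1), 0.42 for Tcf7 (ΔTE DN1), 0.090 for Myb (ΔTE DN2a), and -0.50 for Lef1 and 0.16 for Myb (ΔTE DN2b). With no mitochondrial limit they were 0.47 for Myb (WT DN1), 0.51, 0.40 and 0.47 for Tcf7, Gata3 and Myb (WT DN2b), 0.42 for Myb (ΔTE DN2a), and 0.39, 0.28 and 0.57 for Tcf7, Gata3 and Myb (ΔTE DN2b). Without stromal or myeloid marker cells, Tcf7 and Myb were both 0.14 (WT DN2a).

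Steps from the DN1 to the DN2a start in WT were 0.43, 0.64 and 0.39 for Tcf7, Gata3 and Myb with TMM, 0.78, 1.00 and 0.77 with no mitochondrial limit, and 0.72 and 0.67 for Tcf7 and Myb without stromal-marker cells, where Myb in ΔTE was 0.40. Steps from DN2a to DN2b in WT were 0.33, 0.77 and 0.17 with TMM, -0.22, 0.11 and -0.29 with no limit (Ets1 0.37), and 0.061 and -0.089 for Tcf7 and Myb without stromal-marker cells. In ΔTE with no limit they were -0.22, 0.13, 0.70 and -0.060 for Tcf7, Gata3, Ets1 and Myb.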

Other observations

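Genes that led in cells with a UMI of Gata3 or Lef1, over all starts of a genotype, were chosen after their values were seen, and none was tested. In cells with Gata3 these included Icos, a costimulatory receptor of ILC2s and T cells, at 49.8 CPM with and 7.60 CPM without Gata3 in WT and 79.0 and 16.0 CPM in ΔTE. Ikzf3, an Ikaros-family factor, was at 12.8 CPM (17 UMIs) and 1.40 CPM (23 UMIs) in WT and 25.2 CPM (37 UMIs) and 4.73 CPM (59 UMIs) in ΔTE.

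Cells with Lef1 were 358 in WT and 498 in ΔTE. Tox2, Ccr9, Inpp4b and Cd163l1 were higher in them than in other cells in both genotypes, with log2 ratios of 2.74, 2.29, 1.64 and 1.78 in WT and 2.36, 1.95, 1.52 and 1.53 in ΔTE. The WT ratios of Tox2 (1.65 to 3.68) and Ccr9 (1.31 to 3.13) came from only 10 and 12 UMIs in cells with Lef1. In WT, Cd3d was at 96.6 CPM with and 32.5 CPM without Lef1, whereas in ΔTE it was at 18.3 and 17.5 CPM. In ΔTE, Il2rb, a receptor chain for IL-2 and IL-15, was at 70.3 CPM (23 UMIs) with and 11.9 CPM without Lef1, and the chemokine gene Xcl1 at 52.0 CPM (17 UMIs) and 5.44 CPM. Both had 0 UMIs in WT cells with Lef1, with 37 and 12 UMIs in WT cells without it, and the upper limits of their WT log2 ratios, 3.01 and 4.79, lay above the ΔTE ratios of 2.56 and 3.26. The starts are pooled, the Lef1 interval was not wholly above that of the near-empty barcodes in most libraries, and no difference between the genotypes was tested.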
